A study of Mus musculus with 6 samples.

Results

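Transcripts of 10 transcription factor genes that mark cardiac fibroblasts and their epicardial origin were followed in primary mouse cardiac fibroblasts. The genes were chosen by symbol: the T-box genes Tbx5, Tbx18 and Tbx20, the GATA zinc finger genes Gata4 and Gata6, the basic helix-loop-helix (bHLH) genes Tcf21, Hand2 and Twist1, the zinc finger gene Wt1 and the homeobox gene Meox1. All 10 have a row among the 18059 genes of the deposited tables, and all 10 passed the filter on low counts, as did 13270 genes in all. With PDGF-DD, 1 of the 10 (Twist1) was higher and 4 (Tcf21, Tbx20, Tbx18 and Gata4) were lower than in saline-treated cells, and the fall of Tcf21, 1.52-fold, was the largest change among them. The shares among all genes tested were 19.1% higher and 17.4% lower, and the call of Gata4 did not hold in 7 of 13 processing alternatives.

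The cells came from the hearts of C57BL/6 mice aged 1 to 2 weeks and were grown in medium with 15% serum. The treated group (PDGF-DD, 3 libraries) received PDGF-DD for 12 hours, and the control group (3 libraries) received saline for the same time. PDGF-DD is a homodimer of the D chain of the PDGF family and binds mainly the receptor PDGFRβ. The labels give its dose as 20 µM, which is very high for a growth factor, so that the unit is doubtful. The labels disagree on genotype: the growth protocol takes all cells from mice with a global knockout of PDGF-D, while the genotype field gives PDGF-D -/- for the PDGF-DD samples and control for the others, so a difference of genotype between the groups cannot be told apart from the treatment. Nothing states that the replicates are different animals or dishes. The p-values therefore speak only of variation from library to library, part or all of which may be technical.

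Cardiac fibroblasts arise largely from the epicardium, the cell layer that covers the heart, through an epithelial-to-mesenchymal transition. WT1, TBX18 and TCF21 mark the epicardium and the progenitors that leave it, and TCF21 is required for the fibroblast lineage. GATA4, GATA6, TBX5, TBX20 and HAND2 are better known as factors of heart muscle, but resident cardiac fibroblasts keep expressing several of them. TWIST1 drives epithelial-to-mesenchymal transition in embryos and tumours, and MEOX1 is known as a factor of stress-activated cardiac fibroblasts. The bHLH factors bind E-box sequences as dimers with E proteins, and ID proteins block this by capturing the E proteins.

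The libraries held between 21221114 and 21371829 estimated read counts, with between 15880 and 16026 genes detected in each. Control replicate 1 stood somewhat apart, by the chi-square of its counts over genes divided by the degrees of freedom: 5.11 and 5.70 against the other control libraries, where those had 2.48 between them and the PDGF-DD libraries 1.90 to 2.74. Between the groups the values were 18.4 to 25.9. Against each PDGF-DD library, control replicate 1 had the lowest value of the control libraries (18.4 to 22.4). Fibroblast genes were abundant: 15 markers summed to 22775 to 22979 TPM with PDGF-DD and 23685 to 25631 TPM in control, and Col1a1, which encodes a chain of collagen I, averaged 6896 TPM (a level scaled to transcript length and library total) with PDGF-DD and 8071 TPM in control. Markers of other cells of the heart were present. The summed level of 10 endothelial markers was 194.5 to 196.3 TPM with PDGF-DD and 198.1 to 219.9 TPM in control, and that of 11 macrophage markers 128.6 to 140.9 TPM with PDGF-DD and 146.3 to 152.5 TPM in control. For 13 cardiomyocyte markers the sum was 233.0 to 261.5 TPM with PDGF-DD and 324.3 to 348.9 TPM in control, most of it from Tnnt2 (cardiac troponin T, 228 TPM with PDGF-DD and 314 TPM in control), while 8 of the 13 averaged under 1 CPM. For 11 mural cell markers (pericytes and smooth muscle, among them contractile genes that myofibroblasts share) it was 7216 to 7482 TPM with PDGF-DD and 9097 to 9228 TPM in control, and for 7 Schwann cell markers 9.30 to 9.70 TPM with PDGF-DD and 10.3 to 12.7 TPM in control. No marker of these lists was at 0 in all 6 libraries, and their part in the results below was not tested. Reads of Pdgfd were counted in all libraries, 69, 72 and 82 with PDGF-DD and 118, 114 and 91 in control. By the test described below Pdgfd was lower with PDGF-DD (log2 fold change -0.55, edgeR adjusted p = 0.00245). The counts do not show from which exons the reads came.

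Per length, the 10 genes spanned more than 2 orders of magnitude and fell into groups. Tcf21 was highest, at 163 ± 2.69 TPM with PDGF-DD and 248 ± 11.2 TPM in control (SD, n = 3 each, here and below). Tbx20 came next, at 127 ± 8.77 TPM with PDGF-DD and 151 ± 6.19 TPM in control. Together these genes made up 54.9% ± 0.52 of the summed TPM of the 10 with PDGF-DD and 61.9% ± 1.23 in control. Gata4 followed at 72.2 ± 1.80 TPM with PDGF-DD and 79.0 ± 6.25 TPM in control, and Gata6 at 51.8 ± 0.25 TPM with PDGF-DD and 55.4 ± 5.01 TPM in control. Over the 6 libraries the ranges of these 4 genes did not overlap with each other. Hand2, Tbx18 and Twist1 shared the next level, and over the 6 libraries the ranges of neighbours in this order overlapped: Hand2 lay between 34.65 and 36.96 TPM, Tbx18 between 30.08 and 37.79 TPM and Twist1 between 27.66 and 38.07 TPM. Twist1 was the highest of the 3 by mean with PDGF-DD, at 37.2 ± 0.74 TPM, and the lowest in control, at 28.3 ± 0.54 TPM. Meox1 (5.18 to 6.91 TPM), Wt1 (1.92 to 3.17 TPM) and Tbx5 (0.60 to 1.01 TPM) were far lower. The ratio of Gata4 to Gata6 in TPM was 1.39 ± 0.03 with PDGF-DD and 1.43 ± 0.04 in control, a difference about as large as its spread.

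**Figure D1:**
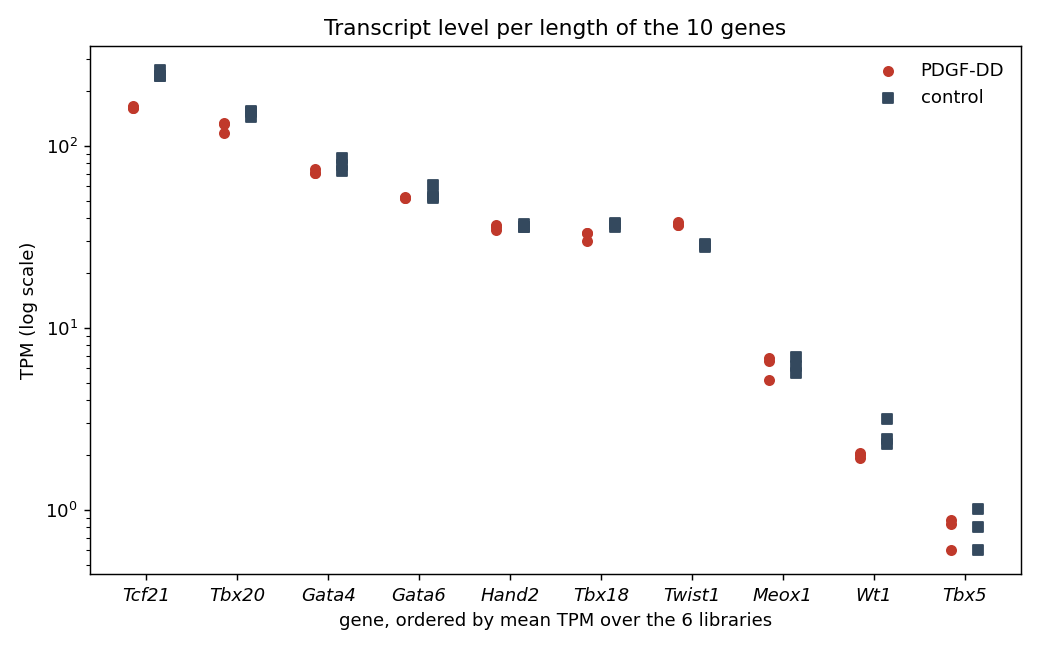
TPM (log scale) of the 10 genes in each library, ordered by their mean over the 6 libraries, with PDGF-DD as red circles to the left of control as blue squares. Tcf21 and Tbx20 are the highest, Meox1, Wt1 and Tbx5 the lowest, and only Twist1 has all PDGF-DD libraries above all control libraries.

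Groups were compared with edgeR's quasi-likelihood test on the estimated counts over all 13270 genes tested, and a gene is called when its Benjamini-Hochberg adjusted p is under 0.05. By this rule 36.5% of all genes tested were called. Of the 10 genes 5 were called, 1 higher and 4 lower, and the median log2 fold change of the 10 was -0.10, against -0.01 over all genes tested. The median absolute log2 fold change was 0.15 for the 10 genes and 0.15 for all genes tested. Levels below are CPM, counts scaled to the library total with TMM factors and not to gene length. Without control replicate 1 the same 5 genes were called, and Wt1 as well. The summed levels of all 7 marker lists (fibroblast, epicardial, mural cell, cardiomyocyte, endothelial, macrophage and Schwann cell) were also lower in every PDGF-DD library than in any control library, and their part in the lower levels of the 4 factors was not tested. Single genes weigh heavily in such sums, as Aldh1a1 (71.9 TPM with PDGF-DD, 129 TPM in control) does among epicardial markers. Tnnt2 (228 TPM with PDGF-DD, 314 TPM in control) does so among cardiomyocyte markers. By gene, 7 of 15 fibroblast markers were called lower and 2 higher. Of mural cell markers, 6 of 10 tested were called lower and 1 higher, against 1 of 10 endothelial and 0 of 11 macrophage markers lower. The shares over all genes tested were 17.4% lower and 19.1% higher. Among all genes tested, 47.1% had CPM ranges that did not overlap, in either direction. In bulk RNA, fewer cells of a type and less RNA per cell cannot be told apart.

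**Figure D2:**
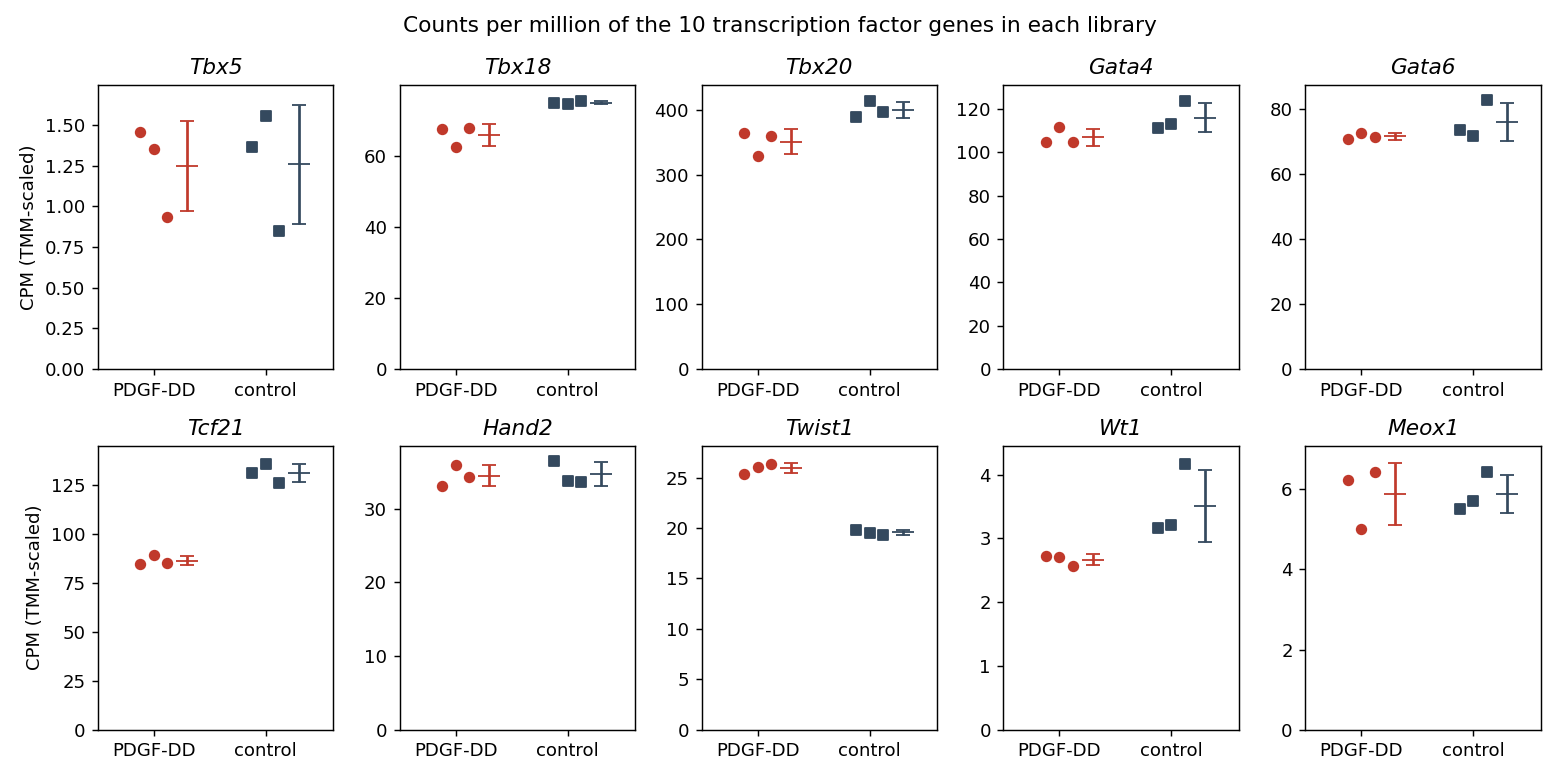
CPM of each gene in the 3 PDGF-DD libraries (red circles, left) and the 3 control libraries (blue squares, right), with the mean and SD beside each group and every axis starting at 0. The groups are separate for Tcf21, Twist1, Tbx18, Tbx20 and Wt1 and overlap for the other 5 genes.

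The bHLH genes took 3 different courses: Tcf21 fell, Twist1 rose and Hand2 did not pass the test. Tcf21 (Entrez gene 21412) stood at 84.8, 89.2 and 85.1 CPM in the PDGF-DD libraries and at 131, 135 and 126 CPM in the control libraries. Every PDGF-DD library lay far below every control library. Tcf21 had a log2 fold change of -0.60 (SE 0.04, 95% interval -0.69 to -0.51, edgeR adjusted p = 3.63e-11), larger in absolute size than those of 94.3% of all genes tested. In the deposited FPKM values (fragments scaled to transcript length and library total) Tcf21 was at 70.7, 74.2 and 70.9 with PDGF-DD and at 109, 112 and 104 in control, a log2 ratio of the means of -0.59.

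Twist1 (Entrez gene 22160) stood at 25.4, 26.1 and 26.4 CPM with PDGF-DD and at 19.8, 19.5 and 19.3 CPM in control. The spread within each group was small beside the gap between the groups. Twist1 had a log2 fold change of 0.41 (SE 0.06, 95% interval 0.28 to 0.54, edgeR adjusted p = 1.27e-05), a 1.33-fold rise. As these genes moved in opposite directions, Tcf21 had 4.37 ± 0.13 times the TPM of Twist1 with PDGF-DD and 8.78 ± 0.27 times in control. The ratio was formed after the values of both genes had been seen and is a description without a test.

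Hand2 (Entrez gene 15111), a factor of the developing ventricles and of the epicardium, stood at 33.1, 36.0 and 34.4 CPM with PDGF-DD and at 36.6, 33.8 and 33.7 CPM in control. The groups overlapped over most of their ranges. The 95% interval of its log2 fold change of -0.01 ran from -0.13 to 0.11 (edgeR adjusted p = 0.928), so a change of the size seen for Tcf21 or Twist1 lies outside it. Genes on the opposite strand overlap Tcf21, Tbx18, Gata6, Hand2 and Meox1, and without a stated strand setting their counts may hold reads of both, which leaves them uncertain.

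The sequences upstream of the start sites of these genes are shown because Tcf21 and Twist1 moved in opposite directions and Hand2 did not pass. They are the 250 bases before the RefSeq start (GRCm38.p6, a later build than the one the submitters name), 5′ to 3′ on the gene's own strand. Those of Tcf21 (chr10:22820144-22820393, minus strand), Twist1 (chr12:33957421-33957670, plus strand) and Hand2 (chr8:57320733-57320982, plus strand) lie on chromosomes 10, 12 and 8. Capitals mark matches on either strand to any of 8 motifs: AP-1 (TGANTCA), CRE (TGACGTCA), E-box (CANNTG), T-box (AGGTGTGA), TEAD (CATTCC), the AGATAA motif of GATA factors, the TATAAA motif of TATA boxes and the SRF CArG box.
Tcf21: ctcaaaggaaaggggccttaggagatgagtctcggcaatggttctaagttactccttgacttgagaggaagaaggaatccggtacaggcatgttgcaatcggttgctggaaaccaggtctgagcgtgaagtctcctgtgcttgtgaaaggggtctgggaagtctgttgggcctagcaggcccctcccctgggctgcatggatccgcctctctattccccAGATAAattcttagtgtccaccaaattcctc
Twist1: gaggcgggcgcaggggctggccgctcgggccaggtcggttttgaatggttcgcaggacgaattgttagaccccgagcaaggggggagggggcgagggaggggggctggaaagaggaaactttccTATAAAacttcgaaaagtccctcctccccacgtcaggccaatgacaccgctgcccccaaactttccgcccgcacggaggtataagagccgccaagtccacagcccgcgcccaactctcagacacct
Hand2: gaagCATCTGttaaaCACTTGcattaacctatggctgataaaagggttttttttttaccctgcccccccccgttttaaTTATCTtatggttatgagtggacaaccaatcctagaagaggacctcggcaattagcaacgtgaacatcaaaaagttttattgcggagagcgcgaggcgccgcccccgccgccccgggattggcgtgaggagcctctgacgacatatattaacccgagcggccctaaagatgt
The Tcf21 window held 1 match, a GATA motif 31 to 26 bases before the start. The Twist1 window held 1 match as well, a TATA motif 126 to 121 bases before the start. In the Hand2 window there were E-boxes at 246 to 241 and 235 to 230 bases before the start and a GATA motif on the opposite strand at 172 to 167. Of 32851 RefSeq promoter windows of the same length, 9.99% held the GATA motif, 12.4% the TATA motif and 66.2% an E-box. None of the 3 windows held an AP-1 match (6.75% of all windows), a CArG box (1.47%), a CRE (1.55%), a TEAD match (12.6%) or a T-box match (1.12%), which says only that these letters are not in these windows.

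Of the T-box genes, Tbx20 and Tbx18 fell by nearly the same small amount, and Tbx5 was too low for a precise comparison. Tbx20 (Entrez gene 57246), required for growth of the heart chambers and valves, stood at 365, 329 and 359 CPM with PDGF-DD and at 389, 413 and 396 CPM in control. The groups did not overlap, but the PDGF-DD libraries spread more widely than the gap between the groups. The log2 fold change was -0.19 (SE 0.04, 95% interval -0.27 to -0.10, edgeR adjusted p = 0.000895).

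Tbx18 (Entrez gene 76365), a marker of the epicardium and of its mural cell and fibroblast descendants, stood at 67.5, 62.3 and 67.8 CPM with PDGF-DD and at 74.9, 74.4 and 75.4 CPM in control. The control libraries were tightly grouped and all above the PDGF-DD libraries. The log2 fold change was -0.18 (SE 0.05, 95% interval -0.28 to -0.09, edgeR adjusted p = 0.00251). PDGF-DD replicate 2 was the lowest library for both T-box genes. Without it the log2 fold change was -0.13 for Tbx20 and -0.14 for Tbx18, with edgeR adjusted p = 0.0203 and 0.0319.

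Tbx5 (Entrez gene 21388), the gene of Holt-Oram syndrome in humans and a factor of the atria and left ventricle, stood at 1.45, 1.35 and 0.93 CPM with PDGF-DD and at 1.37, 1.56 and 0.85 CPM in control. These values rest on only 18.39 to 33.01 estimated counts per library, and in each group replicate 3 was the lowest. The 95% interval of the log2 fold change, -0.55 to 0.52 (edgeR adjusted p = 0.973), reaches as far as a 1.43-fold rise and a fall to 0.684 of the control level, so no difference was detectable at this depth. The estimated counts of Tbx5, Tbx18 and Tbx20 were not whole numbers (within 0.005) in any of the 6 libraries, while those of the other 7 genes were whole in all of them, as happens where an estimate splits reads between features, so the values of the T-box genes are less certain.

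The windows of Tbx18 (chr9:87731261-87731510, minus strand) and Tbx20 (chr9:24774304-24774553, minus strand), both on chromosome 9, are shown because the genes fell together. Capitals again mark matches to the 8 motifs.
Tbx18: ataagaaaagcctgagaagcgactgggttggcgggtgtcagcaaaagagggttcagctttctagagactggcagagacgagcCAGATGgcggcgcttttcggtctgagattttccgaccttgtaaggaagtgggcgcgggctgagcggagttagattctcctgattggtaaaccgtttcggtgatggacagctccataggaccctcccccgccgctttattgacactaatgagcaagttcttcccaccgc
Tbx20: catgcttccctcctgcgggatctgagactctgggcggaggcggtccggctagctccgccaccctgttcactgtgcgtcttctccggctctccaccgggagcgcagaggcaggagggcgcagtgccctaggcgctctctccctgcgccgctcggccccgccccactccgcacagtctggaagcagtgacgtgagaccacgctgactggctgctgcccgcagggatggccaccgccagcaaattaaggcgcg
Tbx18 had 1 E-box, 168 to 163 bases before the start, and Tbx20 had no match to any of the 8 motifs. Their windows differed in base composition, with 54% G and C for Tbx18 and 68.8% for Tbx20, against 52.4% for Tcf21, 62.4% for Twist1 and 49.2% for Hand2. Sequences of the other 5 genes are not shown.

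The GATA genes, which encode related zinc finger factors that act together in heart development, were both slightly lower by mean, and 1 of them passed the test by a small margin. Gata4 (Entrez gene 14463) stood at 105, 111 and 105 CPM with PDGF-DD and at 111, 113 and 124 CPM in control. The groups overlapped by 1 library on each side. The log2 fold change was -0.12 (SE 0.05, 95% interval -0.21 to -0.02, edgeR adjusted p = 0.0451). The call did not hold in 7 of 13 alternatives, among them DESeq2 (adjusted p = 0.103), total count scaling (0.0678) and the omission of control replicate 3, the highest library, after which the log2 fold change was -0.07 (edgeR adjusted p = 0.28); the range over all alternatives was 0.0118 to 0.28.

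Gata6 (Entrez gene 14465) stood at 70.8, 72.7 and 71.5 CPM with PDGF-DD and at 73.8, 71.8 and 82.8 CPM in control. Only control replicate 3 lay clearly above the others. The log2 fold change of -0.09 (95% interval -0.19 to 0.02) did not pass (edgeR adjusted p = 0.188), and without control replicate 3 it was -0.02 (0.774). Its interval includes the estimate of Gata4, and whether the GATA genes differed in response was not tested.

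Wt1 (Entrez gene 22431), which encodes the Wilms tumour factor that maintains the epicardial state, had the second lowest log2 fold change of the 10 but missed the threshold. It stood at 2.72, 2.71 and 2.56 CPM with PDGF-DD and at 3.16, 3.21 and 4.16 CPM in control, from 55 to 58 counts per library with PDGF-DD and 67 to 88 in control. The groups did not overlap. The log2 fold change was -0.40 (SE 0.16, 95% interval -0.72 to -0.07, edgeR adjusted p = 0.0508). Wt1 passed with upper-quartile scaling (adjusted p = 0.0404) and without control replicate 1 (0.0317), and its log2 fold change was -0.26 without control replicate 3, the highest library (0.27).

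Meox1 (Entrez gene 17285), the factor of stress-activated fibroblasts, stood at 6.24, 5.00 and 6.43 CPM with PDGF-DD and at 5.51, 5.71 and 6.43 CPM in control. The control libraries lay within the range of the PDGF-DD libraries. The 95% interval of the log2 fold change was -0.25 to 0.25 (edgeR adjusted p = 0.994), which holds changes of up to 1.19-fold in the direction of a rise.

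**Figure D3:**
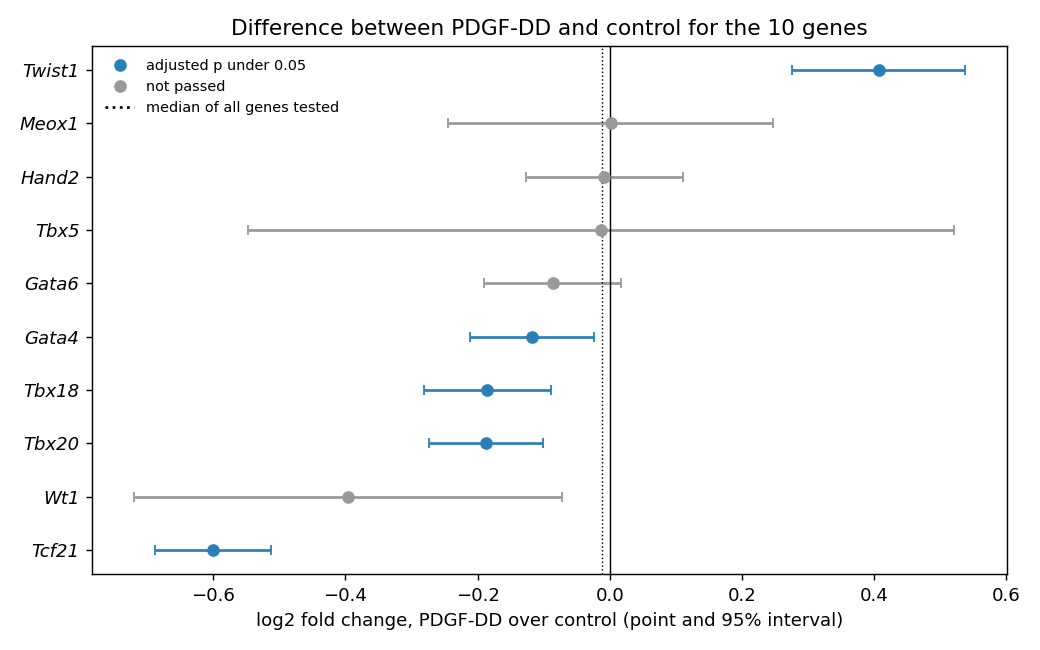
Log2 fold change of PDGF-DD over control for the 10 genes, with 95% intervals from edgeR; blue points passed an adjusted p of 0.05 and the dotted line is the median of all genes tested (-0.01). Tcf21 at -0.60 and Twist1 at 0.41 lie farthest apart, and the interval of Tbx5 is the widest.

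Of the 10 genes 5 had CPM ranges that did not overlap between the groups (Tcf21, Tbx18, Tbx20, Wt1 and Twist1), as did 47.1% of all genes tested. Across all 13 alternatives Tcf21, Twist1, Tbx20 and Tbx18 kept their direction and their call. Their log2 fold changes ranged from -0.63 to -0.57 for Tcf21, from 0.39 to 0.43 for Twist1, from -0.21 to -0.13 for Tbx20 and from -0.21 to -0.14 for Tbx18.

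**Figure D4:**
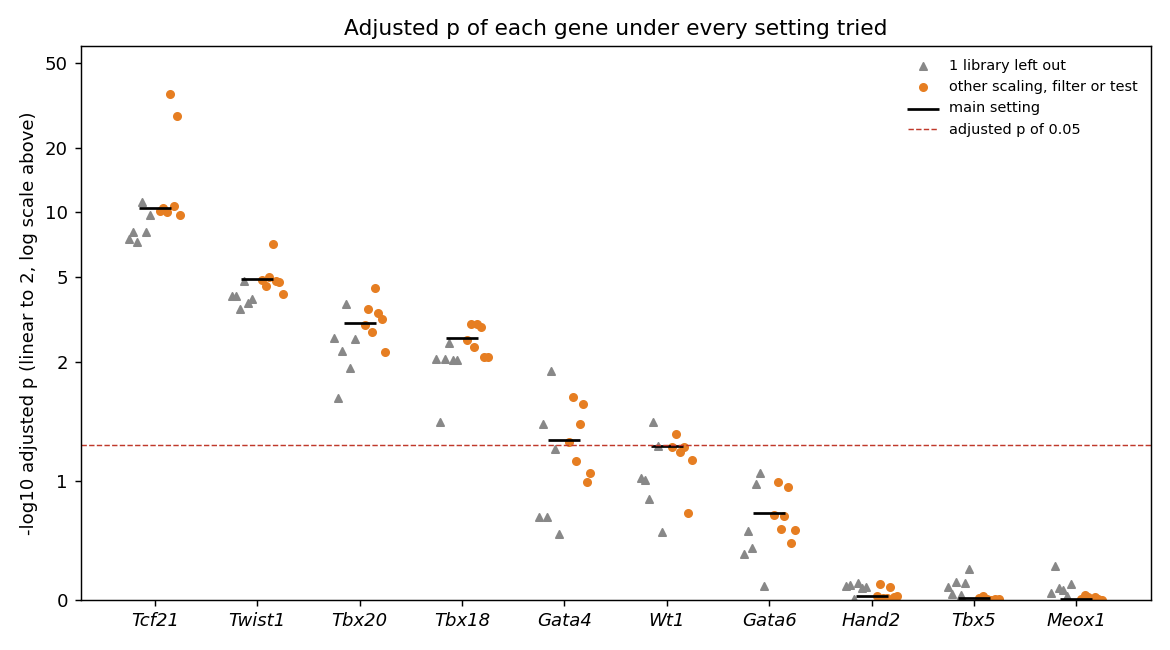
Adjusted p (as -log10, linear up to 2 and on a log scale above) of each gene under the main setting (black bar), with 1 library left out (grey triangles) and with another scaling, filter or test (orange points). Tcf21, Twist1, Tbx20 and Tbx18 stay above the dashed line at an adjusted p of 0.05 throughout, while the points of Gata4 and Wt1 lie on both sides of it.

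Relatives of these genes in the same DNA-binding families were mostly low. Of 26 relatives 23 have a row, 14 passed the filter, and of these 1 was higher and 1 lower (median log2 fold change -0.05). That is 7.14% in each direction, against 19.1% higher and 17.4% lower of all genes tested. Twist2, the closest relative of Twist1 and likewise a factor of mesenchyme, rose to 19.2 ± 1.51 CPM with PDGF-DD, against 15.1 ± 0.51 CPM in control (log2 fold change 0.35 ± 0.07 SE, adjusted p = 0.00046 by edgeR). The summed level of the TWIST genes was 71.1 ± 3.43 TPM with PDGF-DD and 55.0 ± 0.61 TPM in control. Msc, which encodes musculin, a bHLH factor related to TCF21, fell to 2.90 ± 0.24 CPM with PDGF-DD, against 4.45 ± 0.73 CPM in control (log2 fold change -0.62 ± 0.15 SE, adjusted p = 0.00177 by edgeR). The T-box relatives Mga, Tbx2, Tbx3 and Tbx15, the GATA relatives Gata2 and Gata3, the bHLH relatives Scx and Tcf24 and the homeobox gene Meox2 did not pass. Their log2 fold changes lay between -0.48 (Scx) and 0.37 (Tbx3). Exceptions among the alternatives were Mga, which passed as lower in 5 of 13, and Scx, which passed as lower without control replicate 1 (log2 fold change -0.63, edgeR adjusted p = 0.0268) and had a log2 fold change of -0.25 without control replicate 2 (0.451). When PDGF-DD replicate 2 was left out, the value of Tbx3 was 0.16 on the log2 scale (edgeR adjusted p = 0.587).

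Of 20 genes that encode binding partners of these factors, all tested, 4 were higher, 6 lower and 10 did not pass (median log2 fold change -0.04). That is 20% higher and 30% lower, against 19.1% and 17.4% of all genes tested. The inhibitory ID genes split: Id4 fell to 12.3 ± 0.83 CPM with PDGF-DD, against 22.8 ± 1.23 CPM in control (log2 fold change -0.89 ± 0.07 SE, adjusted p = 5.59e-10 by edgeR), and Id3, the most abundant of them, had a log2 fold change of -0.21 (adjusted p = 0.000177 by edgeR). Id1 and Id2 rose, by 0.26 and 0.21 on the log2 scale (edgeR adjusted p = 0.00984 and 0.00964), with Id1 not passing without PDGF-DD replicate 2 (0.0615) or 3 (0.0544) and Id2 not passing without PDGF-DD replicate 1 (log2 fold change 0.13, adjusted p = 0.0922). Their summed level was 600.2 ± 14.9 TPM with PDGF-DD and 643 ± 21.2 TPM in control. The E protein genes Tcf3, Tcf4 and Tcf12 summed to 148 ± 4.80 TPM with PDGF-DD and 145 ± 8.98 TPM in control. Of these, Tcf3 passed as higher (log2 fold change 0.13, edgeR adjusted p = 0.0439). It did so in only 4 of 13 alternatives, with adjusted p between 0.00467 and 0.29; the omission of any library other than control replicate 3 ended the call, and without control replicate 2 the log2 fold change was 0.08. Tcf21, Hand2 and Twist1 together had 1.54 to 1.69 times the TPM of the E proteins with PDGF-DD and 1.98 to 2.25 times in control, a ratio formed after the values were seen.

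Lmcd1, whose protein binds GATA6 and represses it, fell to 31.1 ± 2.29 CPM with PDGF-DD, against 50.9 ± 1.62 CPM in control (log2 fold change -0.71 ± 0.06 SE, adjusted p = 2.39e-10 by edgeR). Mef2c, a muscle factor that works with GATA and HAND proteins, fell to 16.4 ± 2.21 CPM with PDGF-DD, against 22.9 ± 1.70 CPM in control (log2 fold change -0.48 ± 0.09 SE, adjusted p = 0.000149 by edgeR). Yap1, the Hippo pathway coactivator that binds TBX5, rose by 0.14 on the log2 scale (edgeR adjusted p = 0.00646).

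Other transcription factors of mesenchyme also went both ways: of 24 tested (25 listed), 5 were higher and 6 lower (median log2 fold change 0.03). These are 20.8% and 25%, against 19.1% higher and 17.4% lower of all genes tested. Foxc2, a forkhead factor of mesoderm, rose to 54.6 ± 2.03 CPM with PDGF-DD, against 41.4 ± 2.23 CPM in control (log2 fold change 0.40 ± 0.05 SE, adjusted p = 1.03e-06 by edgeR). Snai1, a repressor of E-cadherin in epithelial-to-mesenchymal transition, rose by 0.26 on the log2 scale (edgeR adjusted p = 0.000455). The related zinc finger homeobox genes Zeb1 and Zeb2 moved apart, with log2 fold changes of -0.22 for Zeb1 and 0.18 for Zeb2 (edgeR adjusted p = 0.000202 and 0.00489). So did the paired-related homeobox genes. Prrx2 fell to 2.77 ± 0.26 CPM with PDGF-DD, against 4.92 ± 0.74 CPM in control (log2 fold change -0.83, edgeR adjusted p = 7.12e-05). Prrx1, a factor of fibroblast identity, stood at 158 ± 7.96 CPM with PDGF-DD and 143 ± 6.67 CPM in control (log2 fold change 0.14, edgeR adjusted p = 0.0119) and did not pass without PDGF-DD replicate 1 (0.0682), PDGF-DD replicate 3 (0.0520) or control replicate 3 (0.0549). Tead1, a DNA-binding partner of YAP, fell by 0.22 on the log2 scale (edgeR adjusted p = 0.000112).

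Genes known from other cells as targets of these factors went both ways. Of 12 tested (15 listed), 3 were higher and 2 lower (median log2 fold change -0.00). These are 25% and 16.7%, near the 19.1% higher and 17.4% lower of all genes tested. The 3 that rose were Snai1, named above, Ccn2, a matricellular protein known as a target of MEOX1, and Cdkn1a, the cell cycle inhibitor p21 and likewise a target of MEOX1, with log2 fold changes of 0.22 for Ccn2 and 0.19 for Cdkn1a (edgeR adjusted p = 1.18e-05 and 0.000281). Itga4, the integrin α4 gene and a target of WT1 in the epicardium, fell to 86.2 ± 3.82 CPM with PDGF-DD, against 116 ± 7.14 CPM in control (log2 fold change -0.42 ± 0.05 SE, adjusted p = 1.29e-07 by edgeR). Myh6, a target of GATA4 in heart muscle and a cardiomyocyte marker, had a log2 fold change of -0.71 at 3.52 ± 0.44 CPM with PDGF-DD and 5.77 ± 0.27 CPM in control (edgeR adjusted p = 7.85e-05). Aldh1a2, the retinoic acid synthase gene that WT1 activates, stood at 49.5 ± 2.05 CPM with PDGF-DD and 49.4 ± 0.13 CPM in control (edgeR adjusted p = 0.970). Postn, which encodes periostin and is a target of TWIST1 and MEOX1, stood at 2785 ± 34.9 CPM with PDGF-DD and 2795 ± 106 CPM in control (edgeR adjusted p = 0.929).

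Markers that are not transcription factors gave the setting. Of 15 fibroblast markers, 2 were higher and 7 lower (median log2 fold change -0.13). That is 13.3% higher and 46.7% lower, against 19.1% and 17.4% of all genes tested. Pdgfra, a receptor that marks resident cardiac fibroblasts, and Vim, the intermediate filament vimentin, rose by 0.40 and 0.19 on the log2 scale, while Mfap4, Lum and Col3a1, genes of matrix proteins, had log2 fold changes of -0.46, -0.43 and -0.29. Of 12 epicardial markers tested (14 listed), 1 was higher and 3 lower (median log2 fold change -0.10). That is 8.33% higher and 25% lower, against 19.1% and 17.4% of all genes tested. The 8 that did not pass had log2 fold changes between -0.39 and 0.36. The summed level of the list was 228.5 to 231.2 TPM with PDGF-DD and 285.6 to 305.4 TPM in control. Aldh1a1, an aldehyde dehydrogenase that makes retinoic acid, fell to 73.0 ± 1.75 CPM with PDGF-DD, against 129 ± 1.62 CPM in control (log2 fold change -0.82 ± 0.04 SE, adjusted p = 6.31e-14 by edgeR). Sema3d, a guidance factor of the epicardium, and Upk3b, a mesothelial surface protein, had log2 fold changes of -0.47 and -0.42 (edgeR adjusted p = 2.75e-08 and 0.000121). The marker called higher was Krt18, an epithelial keratin, at 2.37 ± 0.73 CPM with PDGF-DD and 1.42 ± 0.13 CPM in control (log2 fold change 0.74, edgeR adjusted p = 0.0101). Krt18 did not pass without PDGF-DD replicate 2 (0.114) or control replicate 2 (0.0518).

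Among markers of other cells, Tnnt2 fell to 115 ± 8.94 CPM with PDGF-DD, against 156 ± 5.20 CPM in control (log2 fold change -0.44, edgeR adjusted p = 1.34e-07). With it, 3 of 10 tested cardiomyocyte markers were lower, the others being Myh6 and Ryr2 (edgeR adjusted p = 0.0485). Over all genes tested, 19.1% were higher and 17.4% lower. Ryr2 passed in 2 of 12 alternatives (adjusted p up to 0.207) and in none of the 6 that leave out 1 library. Of 10 endothelial markers 1 was lower, Tek, an angiopoietin receptor (log2 fold change -0.53). The 11 macrophage markers had log2 fold changes between -0.39 and 0.29. Of 10 tested mural cell markers 6 were lower and 1 higher, with the largest falls for Myh11 and Notch3 (log2 fold changes -1.02 and -0.97). Of 6 tested Schwann cell markers Kcna1 and Gfra3 were lower (log2 fold changes -0.78 and -0.95), Gfra3 in 9 of 12 alternatives.

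**Figure D5:**
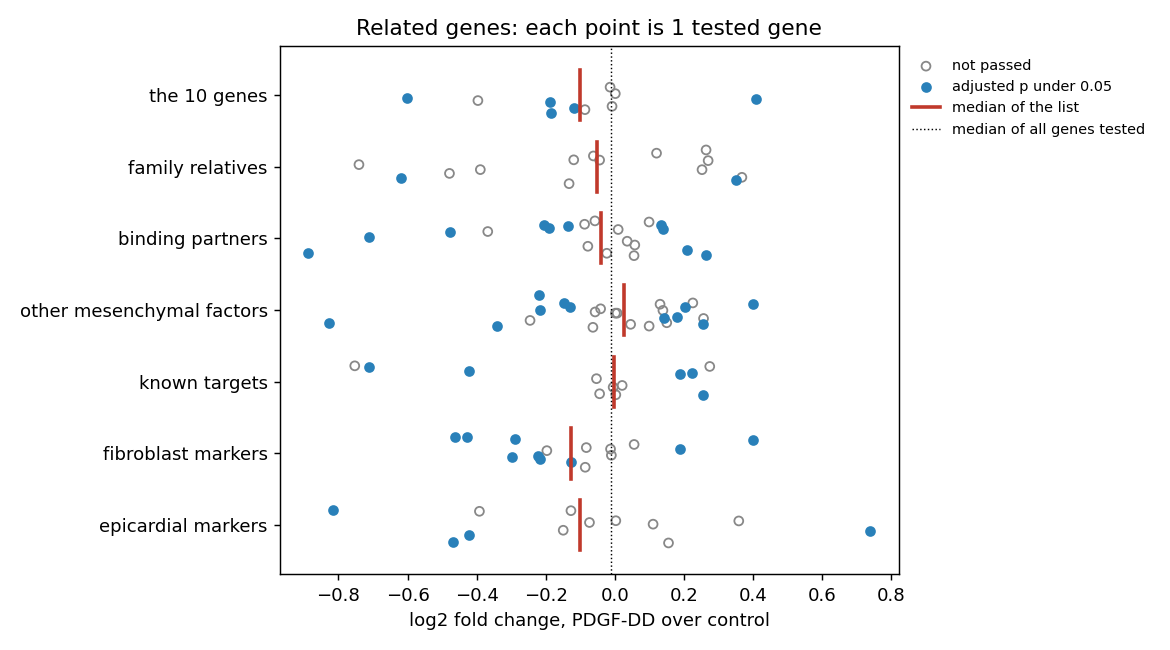
Log2 fold change of PDGF-DD over control for each tested gene of 7 lists, with filled blue points for an adjusted p under 0.05, a red bar at the median of each list and a dotted line at the median of all genes tested. Every list holds genes on both sides of 0, and the list medians lie between -0.13 for fibroblast markers and 0.03 for other mesenchymal factors.

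The genes whose profile over the 6 libraries was nearest to each called factor were found by the root mean square difference of log2 CPM after centring each gene, over 10458 genes averaging 5 CPM or more. With 3 libraries in each of 2 groups this likeness rests largely on the size of the difference between the groups. Nearest to Tcf21 were Fzd6 (0.02), Gadd45b (0.04) and Rflnb (0.04), and nearest to Twist1 were Gart, Topbp1 and Hspa8 (0.01 each). Nearest to Tbx20 were F2r (0.01), Hif1a (0.02) and Rhof (0.02), nearest to Tbx18 were Adam10, Myo18a and Vps13c (0.02 each), and nearest to Gata4 were Yif1b (0.01), Pon2 (0.02) and Pmepa1 (0.02).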

How the data were processed

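Poly(A)-selected RNA of primary cardiac fibroblasts was sequenced in 6 libraries, 3 with PDGF-DD and 3 with saline (control). The submitters' processing notes name, with no role, DESeq2 1.4.5, RSEM 1.2.12, Bowtie2 2.2.5, HISAT2 2.0.4 and build mm9. The gene annotation, any filter on reads and the strandedness of counting were not given in the sources used here. In the GENCODE M21 annotation, genes on the opposite strand overlap Tcf21, Tbx18, Gata6, Hand2 and Meox1, so those counts may hold reads of both. The authors deposited estimated counts per gene, not normalized, per the file headers and values. The deposited FPKM values and the deposited TPM values were scaled by the authors to length and depth, per the file headers.

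Estimated counts were rounded, filtered with filterByExpr, scaled with TMM and tested with the quasi-likelihood test of edgeR 4.0.16 (robust, two-sided) in R 4.3.3, with Benjamini-Hochberg adjustment over all genes tested. The standard error is the log2 fold change divided by the square root of F. The method was tested on simulated data. Far fewer genes were changed there than were called here, equally up and down, so it cannot speak for scaling under a broad change. The genes, lists and rule for naming genes (all 10 factors, relatives averaging 1 CPM or more, from each list the 2 most abundant genes and up to 4 called genes of smallest p, Pdgfd, and the 3 genes nearest each called factor) were chosen with earlier results of these data known, and some genes the rule allows are not named. Genes named outside it were chosen after their values were seen: Id2, Tcf3, Tcf4, Tcf12, Yap1, Zeb1, Zeb2 and Prrx1. Alternatives were other scalings (size factors of DESeq2 1.42.0, upper quartile, total count), other filters, the DESeq2 test, a replicate block and the omission of each library. Sequences are from a set of RefSeq promoter windows (GRCm38.p6), and the set used here held 5 of the 10 genes.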

Additional observations from a re-analysis of the deposited data

How the results depend on the processing

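Depth limits Tbx5 most and Wt1 next. Over 13 alternatives 1 factor was higher in each, and the number lower was 4 in the main setting and ranged from 3 (total count scaling, DESeq2, the replicate block and the omission of PDGF-DD replicate 1 or 3 or control replicate 2 or 3) to 5 (upper-quartile scaling and the omission of control replicate 1). Over all genes, 2030 to 2709 were higher and 1722 to 2636 lower.

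With the replicate block 2269 genes were higher and 2076 lower, against 2535 and 2310 without it, and Gata4 had an adjusted p of 0.0861. Same-numbered libraries did not deviate together (correlations of -0.07, -0.09 and -0.03). These values cannot tell whether same-numbered libraries were prepared as pairs.

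Counts that moved by more than 1.5 times were these. Family relatives called lower (1 in the main setting) numbered 2 with upper-quartile scaling, 2 without the low-count filter and 1 to 3 with 1 library left out (2 without PDGF-DD replicate 3, 3 without control replicate 1). Known targets called lower numbered 1 at a mean of at least 5 CPM, against 2. Epicardial markers called higher (1) numbered 2 without the filter, 0 at a mean of at least 5 CPM and 0 to 1 with 1 library left out (0 without control replicate 2). With 1 library left out, binding partners called higher (4) numbered 2 to 4 and other mesenchymal factors called higher (5) 3 to 7, the lowest without PDGF-DD replicate 1 or 3.

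Some genes that did not pass changed sign. The log2 fold change of Meox1 was -0.019 with upper-quartile scaling, -0.013 at a mean of at least 5 CPM, -0.00049 with the replicate block and -0.058 to 0.12 with 1 library left out. That of Aldh1a2 was -0.017 with upper-quartile scaling, -0.011 at a mean of at least 5 CPM and -0.020 to 0.040 with 1 library left out. With total count scaling Hand2 was at 0.0029 and Postn at 0.0062. With 1 library left out the ranges were -0.031 to 0.032 for Hand2, -0.028 to 0.026 for Postn, -0.23 to 0.17 for Tbx5, -0.014 to 0.58 for Tcf24, -0.21 to 0.026 for Meox2, -0.12 to 0.064 for Tbx2 and -0.15 to 0.42 for Tbx15. The cause was not tested.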
